A study of Mus musculus with 13 samples.

Results

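The subunits of oxidative phosphorylation were followed in the lungs of mice that breathed 80% oxygen. Members were the rows of the deposited count table whose gene symbol belongs to a subunit family of complexes I to V (Nduf, Sdh, Uqcr, Cox4 to Cox8 and Atp5) or to a protein-coding gene of mitochondrial DNA (mtDNA). These were 103 of 32544 rows, 90 encoded in the nucleus and 13 in mtDNA, and 94 of them (81 nuclear and 13 in mtDNA) held enough counts to be tested. The 13 libraries came from wild-type (WT) male C57BL/6J mice, bought at 7 weeks of age, that spent 5 days in normoxia (21% oxygen, 7 libraries) or in hyperoxia (80% oxygen, 6 libraries). The lungs were perfused with cold buffer before freezing, and total lung RNA was read by Quant-seq, which sequences the 3′ ends of polyadenylated transcripts.

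The respiratory chain passes electrons from NADH (complex I) and succinate (complex II) through ubiquinone to complex III, through cytochrome c to complex IV and on to oxygen, and complexes I, III and IV pump protons that drive the ATP synthase, complex V. Complexes I, III, IV and V are assembled from nuclear-encoded subunits and a few made inside the mitochondrion, whereas complex II is wholly nuclear-encoded. Several subunits contain iron-sulfur clusters, which oxygen and its reactive products can damage, and some subunits of complex IV exist in tissue isoforms, among them Cox4i2, which is high in lung.

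The libraries held between 1607111 and 4540288 counts, so that 3 counts, taken as the floor, stood for 0.661 to 1.87 CPM, the count scaled to a common library size. Hyperoxia replicate 1 stood apart, with a mean correlation of 0.779 with the other libraries, where the others had at least 0.886. It is kept in the values below, and the numbers of members called in each complex are also given without it. The libraries carry letters in their file columns. Letters B to M went to 5 libraries at 21% oxygen and 3 at 80%, and letters O to S to 2 at 21% and 3 at 80%. What the letters stand for is not given in the sources used here. The lung was recognised by its markers, since surfactant and club cell transcripts such as Sftpc (5066 to 13578 CPM in normoxia) and Scgb1a1 (13447 to 51496 CPM) were abundant. The labels do not tie each library to an animal in so many words, so p-values measure the spread between these libraries, which may in part be technical.

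Promoter letters of the nuclear members are shown first, because the nuclear genes of the chain share regulators. RefSeq promoters of the build GRCm38.p6, running from 250 bases before to 50 after the start, were matched for 67 of the 81 tested nuclear members, 3 of them by an older symbol. The letters GCGCATGC (NRF1), CCGGAAG (the ETS family, which includes GABP), AAGATGGC (YY1) and TCAAGGTCA (ERR) were searched on both strands. Those of YY1 were in 11 members (16.4%, against 2.75% of all 32851 promoters in the table), those of NRF1 in 10 (14.9%, against 2.71%), those of the ETS family in 16 (23.9%, against 8.86%) and those of ERR in 2 (2.99%, against 0.423%). Because many promoters in the table belong to genes without counts here, the shares among the 9767 tested genes with a promoter are given as well, at 5.17% for YY1, 5.78% for NRF1, 19.4% for ETS and 0.287% for ERR. A match describes the letters and not a bound site. Windows of 30 bases are printed for all 7 complex I members with the YY1 letters, of which Ndufa9, Ndufs4 and Ndufc1 were called higher in hyperoxia and Ndufs6, Ndufs7, Ndufa3 and Ndufb8 were not. Another 4 windows, from complexes I, II, IV and V, show the NRF1 letters as their reverse complement. Capitals mark the motif, each window reads 5′ to 3′ on the strand of the gene, and the coordinates are those of GRCm38.p6.
Ndufa9, YY1, chr6:126849097-126849126, minus strand: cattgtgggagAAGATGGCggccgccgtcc
Ndufs4, YY1, chr13:114388045-114388074, minus strand: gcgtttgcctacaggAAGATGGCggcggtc
Ndufc1, YY1, chr3:51408915-51408944, minus strand: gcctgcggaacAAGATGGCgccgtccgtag
Ndufs7, YY1, chr10:80249462-80249491, plus strand: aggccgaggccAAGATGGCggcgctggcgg
Ndufs6, YY1, chr13:73328433-73328462, minus strand: aagggtcaccggcAAGATGGCggcggtgct
Ndufa3, YY1, chr7:3617384-3617413, plus strand: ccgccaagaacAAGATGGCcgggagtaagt
Ndufb8, YY1, chr19:44555393-44555422, minus strand: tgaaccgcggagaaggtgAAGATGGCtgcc
Ndufa8, NRF1, chr2:36049328-36049357, minus strand: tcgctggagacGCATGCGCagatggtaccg
Sdhb, NRF1, chr4:140961206-140961235, plus strand: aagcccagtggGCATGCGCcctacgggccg
Cox6a1, NRF1, chr5:115349100-115349129, minus strand: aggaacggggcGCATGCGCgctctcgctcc
Atp5k, NRF1, chr5:108434429-108434458, minus strand: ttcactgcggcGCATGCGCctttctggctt
The YY1 letters began between 22 and 38 bases after the start in these 7 windows. Among the last 4, the NRF1 letters began 8 bases before the start in Ndufa8 and 160 before it in Cox6a1. Of the 15 members called higher in hyperoxia with all libraries, 11 had a promoter in the table. The YY1 letters were in 3 of these 11 and in 8 of the 56 other members with a promoter. The letters of NRF1, ETS and ERR were in 0 of the 11, against 10, 16 and 2 of the 56. No difference between called and other members was tested.

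Between hyperoxic and normoxic lung, a minority of nuclear subunit genes was called higher, at a share not far above that of all genes. The excess over that share was not tested. Each of the 5 complexes held at least 1 called gene, and the mtDNA-encoded genes gave no call. Of the 94 members tested, 15 were higher in hyperoxia (15.96%, against 11.8% of all 12496 genes) and 1 was lower (against 10.8%), by edgeR's quasi-likelihood test with p-values adjusted over every gene and a threshold of 0.05. Without hyperoxia replicate 1, 23 members were higher (24.5%, against 15.2% of all genes) and 0 lower (against 13.3% of all genes), and 14 members were higher in both fits. With all libraries, 18 members were higher (against 17.5% of all genes) and 3 lower (against 17.2%) at an unadjusted p under 0.05. In whole-lung RNA, a change in the number of cells of a type and a change in RNA per cell cannot be told apart.

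The median log2 fold change over the members was −0.01, near the −0.03 of all genes tested, and 44 members were above 0 and 50 below. Without hyperoxia replicate 1 it was 0.21, and 62 of the 94 members were above 0. For the nuclear members alone the median was 0.03 with all libraries and 0.24 without that library. In 6 members every hyperoxic library lay above every normoxic one (6.38%, against 5.6% of all genes), and no member lay wholly below (against 5.23% of all genes). These 6 were Ndufa10, Ndufa12, Uqcrq, Cox6a2, Cox7a2 and Atp5g1.

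**Figure D1:**
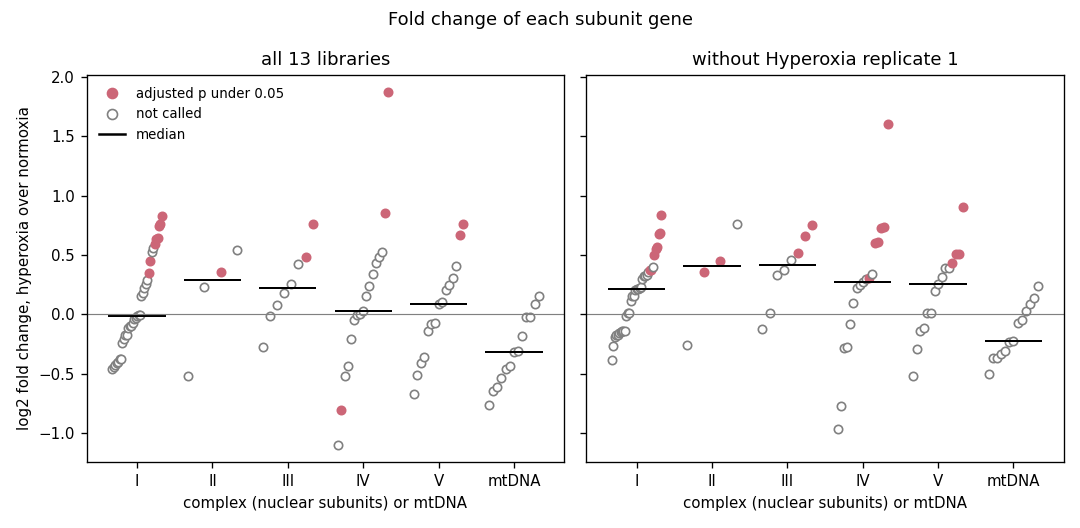
Log2 fold change of hyperoxia over normoxia for the tested subunit genes, with all 13 libraries (left) and without hyperoxia replicate 1 (right). Nuclear genes are grouped by complex, mtDNA genes stand together, filled points have an adjusted p under 0.05, black lines are medians, and Atp5s and Atp5sl, which belong to no complex, are left out. The uppermost point in both panels is Cox6a2, at 1.87 and 1.61, and no mtDNA gene is filled.

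The libraries lettered O to S and those lettered B to M gave different numbers of calls. Within O to S, 36 members were higher (against 11% of all genes) and 1 was lower (against 10.3%). In that set 79 of 95 members were above 0, against 49.7% of all genes. Within B to M, 2 members were higher (against 5.34% of all genes) and 0 lower (against 3.47%). There 32 members were above 0, where the median of all genes was −0.009. After hyperoxia replicate 1 was left out of B to M, 5 members were higher (against 7.49% of all genes) and 0 lower (against 5.81%). Then 48 members were above 0, against 48.4% of all genes. The median log2 fold change of the nuclear members was 0.52 within O to S, −0.23 within B to M and 0.13 within B to M without that library. A test of the difference itself, the interaction of oxygen with the letter set, called 0 of the 94 members and 0% of all genes with all libraries, and 0 members and 0% of all genes without hyperoxia replicate 1. At an unadjusted p under 0.05 that interaction held for 13 members and for 1158 of all genes, or 9.27%. All 15 members called higher with 13 libraries were above 0 in each set, but they were picked by a fit of these same libraries. Of these members, 2 stayed called within B to M and 11 within O to S. Both normoxic libraries lettered O to S were among the lowest of their group, since the mean log2 CPM of the nuclear members, relative to the normoxic mean, was −0.49 and −0.23 in them.

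**Figure D2:**
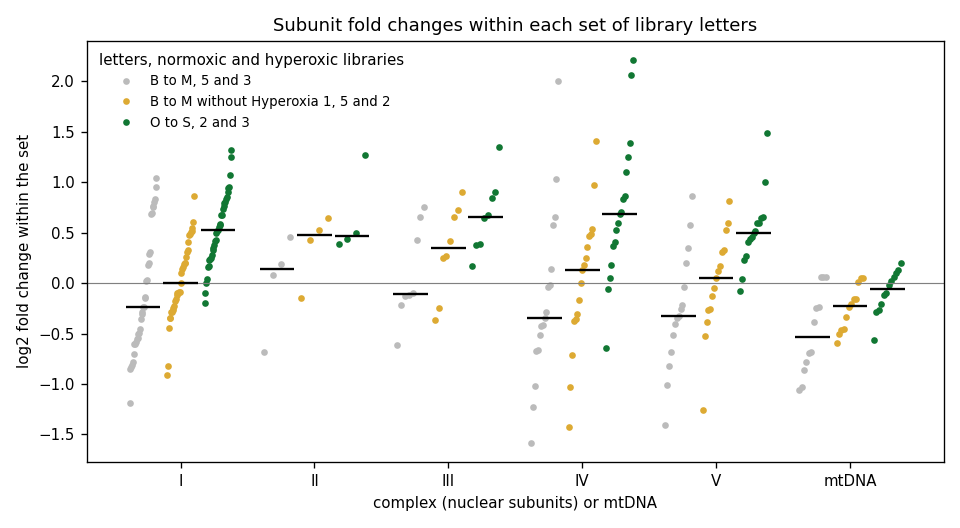
Log2 fold change of the subunit genes within the libraries lettered B to M, within the same libraries without hyperoxia replicate 1, and within those lettered O to S, grouped as before, with medians as black lines. The gene mt-Nd4l, without a count in any hyperoxic library of B to M, is left out. Medians within O to S lie above 0 for the nuclear genes of all 5 complexes, whereas those of B to M without hyperoxia replicate 1 lie closer to 0 in all but complex II.

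Complex I, which oxidises NADH, had 42 members, all tested. Of these, 8 were higher and 0 lower with all libraries, against 11.8% and 10.8% of all genes. Without hyperoxia replicate 1 the numbers were again 8 and 0, against 15.2% and 13.3%, and 7 members were higher in both fits. The called genes were accessory subunits, which surround the catalytic core. In the matrix arm, 4 of the 9 accessory subunits and 0 of the 7 core subunits, which carry the flavin and the iron-sulfur clusters, were higher with and without hyperoxia replicate 1, where 11.8% (all libraries) and 15.2% (without hyperoxia replicate 1) of all genes were. With so few core subunits, 0 calls is near that background, and the difference between core and accessory subunits was not tested. Within the libraries O to S, 3 of the core subunits were called higher, namely Ndufs3 (0.73, adjusted p = 0.0265), Ndufs7 (1.25, adjusted p = 0.0154) and Ndufv1 (1.32, adjusted p = 0.0137), and within B to M their values were −0.60, −0.78 and −0.14. Among the 19 nuclear subunits of the membrane arm, 4 were higher with all libraries and 4 without hyperoxia replicate 1.

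Ndufa12, an accessory subunit of the matrix arm (chr10:94198720-94221443, plus strand), ranged from 115 CPM through a median of 121 to 153 CPM in normoxia and from 179 through 206 to 348 CPM in hyperoxia. Its log2 fold change was 0.83 (SE 0.16, adjusted p = 0.00135, edgeR), and 0.68 without hyperoxia replicate 1, which held the 348 CPM. The groups did not overlap. Ndufa10, an accessory subunit of the membrane arm (chr1:92439010-92473860, minus strand), ran from 110 through 132 to 155 CPM in normoxia and from 172 through 216 to 279 CPM in hyperoxia. It rose by 0.75 on the log2 scale (SE 0.13, adjusted p = 0.000754). Here too each hyperoxic library was above each normoxic one.

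Ndufa9, which sits where the matrix arm meets the membrane arm, rose by 0.63 on the log2 scale (SE 0.14, adjusted p = 0.00485), from a normoxic median of 59.5 CPM (49.1 to 78.4) to 93.9 CPM (75.4 to 123). Ndufs4, an accessory subunit whose loss causes a Leigh-like disease, rose by 0.59 (SE 0.17, adjusted p = 0.0182), from 107 CPM (67.4 to 128) to 153 CPM (115 to 185). The normoxic range was reached by hyperoxia replicate 3 in Ndufa9 and by replicates 2 and 6 in Ndufs4. Ndufc1, a small subunit of the membrane arm, rose by 0.64 (SE 0.17, adjusted p = 0.0125), from 167 CPM (130 to 210) to 248 CPM (207 to 411), and its lowest hyperoxic library lay within the normoxic range.

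The other 3 called members of complex I kept the call in fewer of the 13 fits that left out a library, Ndufa2 in 6, Ndufb5 in 5 and Ndufb2 in 4. Ndufa2, a matrix-arm subunit with a thioredoxin-like fold, had 805 CPM in hyperoxia replicate 1 and 213 to 314 CPM in the other hyperoxic libraries, against 172 to 228 CPM in normoxia. Its log2 fold change was 0.76 with that library (SE 0.25, adjusted p = 0.0400) and 0.37 without it (SE 0.12, adjusted p = 0.0238). Ndufb5 and Ndufb2, both of the membrane arm, rose by 0.35 (adjusted p = 0.0452) and 0.45 (adjusted p = 0.0482). Ndufb2 did not pass without hyperoxia replicate 1 (0.35, adjusted p = 0.0621). Ndufb5 overlaps Mrpl47, and Ndufb2 overlaps Braf, each on the opposite strand. Reads of the overlapping genes may be shared if counting ignored the strand, which is not known here.

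Ndufb6, another membrane-arm subunit, was not called with all 13 libraries, but was called when hyperoxia replicate 1 was left out and within O to S (1.07, adjusted p = 0.0121). It had 0 counts in that library and 88.8 to 145 CPM in the other 5 hyperoxic libraries, above the 42.5 to 82.1 CPM of normoxia. Its log2 fold change stood at 0.84 in the fit of 12 libraries (SE 0.16, adjusted p = 0.0011) and at 0.56 in the fit of 13 (SE 0.52, adjusted p = 0.480). Of the core subunits, Ndufv2, which holds an iron-sulfur cluster, came closest to a call in the fits of 13 and 12 libraries. It was at 0.32 without hyperoxia replicate 1 (adjusted p = 0.0535). Ndufs3, Ndufs7 and Ndufv1 were called within O to S, as given above. Ndufs1, the largest subunit of the core, had 41.1 to 58.3 CPM in normoxia and 35.9 to 57.7 CPM in hyperoxia, and the ranges of Ndufv1, which binds the flavin and NADH, were likewise overlapping at 21.7 to 62.1 and 21.2 to 76.3 CPM. Ndufs7 and Ndufs8, which carry the last clusters before ubiquinone, had log2 fold changes of −0.24 (SE 0.34) and −0.44 (SE 0.34), and Ndufs8 one of −0.26 without hyperoxia replicate 1.

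Complex II, which feeds electrons from succinate, had 4 members. Sdha, the flavoprotein (chr13:74322254-74350280, minus strand), rose by 0.36 on the log2 scale (SE 0.12, adjusted p = 0.0424), from a normoxic median of 182 CPM (155 to 217) to 233 CPM (208 to 278), with overlapping groups, and the call held in 6 of the 13 fits that left out a library. Sdhc, a membrane anchor, had 38.1 CPM in hyperoxia replicate 1 and 167 to 219 CPM in the other hyperoxic libraries, against 123 to 167 CPM in normoxia. It was called in the fit of 12 libraries (0.45, SE 0.12, adjusted p = 0.00936) but not in that of 13 (0.23, adjusted p = 0.586). Sdhb, the iron-sulfur subunit, was not called with all libraries or without that library (0.76, SE 0.28, adjusted p = 0.0536), but was within O to S (1.27, adjusted p = 0.0137). Sdhd, the other anchor, was not counted in hyperoxia replicate 1 (0 counts), and the fit of 12 libraries gave −0.26 (SE 0.39, adjusted p = 0.663).

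Complex III, which passes electrons from ubiquinol to cytochrome c, had 9 tested members, of which 2 were higher with all libraries (against 11.8% of all genes) and 3 without hyperoxia replicate 1 (against 15.2%). Uqcrq, a small accessory subunit (chr11:53427922-53430831, minus strand), ranged from 163 CPM through a median of 197 to 268 CPM in normoxia and from 295 through 344 to 366 CPM in hyperoxia. The groups were apart, and its log2 fold change of 0.76 (SE 0.13, adjusted p = 0.000824) was 0.75 without hyperoxia replicate 1. Uqcrc2, one of the paired core proteins, rose by 0.48 (SE 0.14, adjusted p = 0.0233), from 172 CPM (151 to 235) to 239 CPM (209 to 343), and it overlaps Pdzd9 on the opposite strand. The Rieske iron-sulfur protein Uqcrfs1 had 28.4 CPM in hyperoxia replicate 1 and 133 to 262 CPM in the others, against 88.6 to 128 CPM in normoxia, and was called without that library (0.66, SE 0.17, adjusted p = 0.00907) and within O to S (0.67, adjusted p = 0.0171), but not with all libraries.

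Complex IV, cytochrome c oxidase, gave both the gene with the largest fold change and the only member called lower. Of 20 tested members, 2 were higher and 1 lower with all libraries, against 11.8% and 10.8% of all genes. Without hyperoxia replicate 1, 6 were higher and 0 lower, against 15.2% and 13.3% of all genes. Of the 11 subunits that all tissues share, 1 was higher with all libraries (against 11.8% of all genes) and 5 without hyperoxia replicate 1 (against 15.2%).

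Cox6a2, the form of subunit VIa known from heart and skeletal muscle (chr7:128205435-128206387, minus strand), ranged from 27.9 CPM through a median of 57.7 to 85.8 CPM in normoxia and from 121 through 196 to 407 CPM in hyperoxia. Every hyperoxic library was above every normoxic one, and the log2 fold change was 1.87 (SE 0.27, adjusted p = 0.000178). It was 1.61 without hyperoxia replicate 1 (SE 0.21, adjusted p = 3.16e-05), 2.00 within B to M and 2.07 within O to S. The gene lies within Itgad, which runs on the opposite strand and had 0 to 3 counts per library. Markers of muscle were read beside it. Of the 9 tested cardiac muscle markers 5 were lower and 0 higher (median log2 fold change −1.74), with summed levels of 108 to 316 CPM in normoxia and 16.1 to 333 CPM in hyperoxia. Among the 6 vascular smooth muscle markers 3 were higher and 0 lower, with sums of 279 to 397 CPM and 453 to 822 CPM. Of 6 pericyte markers, 1 was higher and 1 lower, with sums of 128 to 169 and 68.8 to 178 CPM. Of all genes, 11.8% were higher and 10.8% lower. Without hyperoxia replicate 1, 6 cardiac markers were lower and 2 vascular smooth muscle markers higher, where 13.3% of all genes were lower and 15.2% higher. No marker counted in these 3 lists was at 0 in every library, and their part in the change of Cox6a2 was not tested.

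The widespread form of the same subunit, Cox6a1, ran from 93.4 to 199 CPM in normoxia and from 132 to 314 CPM in 5 hyperoxic libraries, with 18.2 CPM in hyperoxia replicate 1. It did not pass with all libraries, but passed without that library (0.74, SE 0.22, adjusted p = 0.0198) and within O to S (1.25, adjusted p = 0.0059). Isoform ratios were taken on a log2 scale, with 1 added to each raw count. The ratio of Cox6a2 to Cox6a1 was −1.31 ± 0.43 (SD, n = 7) in normoxia and 0.41 ± 1.98 (SD, n = 6) in hyperoxia. The difference was 1.71, and 0.91 without hyperoxia replicate 1, whose ratio alone was 4.44.

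Of the other tissue isoforms tested, Cox4i2 was the only one called with all 13 libraries. Cox4i2, the isoform of subunit IV known from lung, had 3.62 to 14.1 CPM in normoxia and 4.69 to 7.00 CPM in hyperoxia, with medians of 10.8 and 5.61 CPM. Its log2 fold change of −0.80 (SE 0.28, adjusted p = 0.0489) was the only call to lower levels, and it was −0.77 without hyperoxia replicate 1 (adjusted p = 0.0571). Within B to M the value was −1.02, and within O to S it was −0.060. The call held in 1 of the 13 fits that left out a library, the one without normoxia replicate 6. The common form Cox4i1 did not pass (−0.21, SE 0.23), and the log2 ratio of Cox4i2 to Cox4i1 was −3.86 ± 0.20 (SD, n = 7) in normoxia and −4.35 ± 0.43 (SD, n = 6) in hyperoxia.

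Cox7a1, the heart and muscle form of subunit VIIa, had 4.46 to 17.8 CPM in normoxia and 1.88 to 9.40 CPM in hyperoxia, and its fold change of −1.10 on the log2 scale did not pass (SE 0.42, adjusted p = 0.0736). Its widespread counterpart Cox7a2 (chr9:79755361-79759878, minus strand) rose by 0.85 (SE 0.20, adjusted p = 0.00620), from 311 CPM (244 to 360) to 471 CPM (412 to 1014), without overlap. The log2 ratio of Cox7a1 to Cox7a2 was thus −5.11 ± 0.63 (SD, n = 7) in normoxia and −7.08 ± 1.03 (SD, n = 6) in hyperoxia. Hyperoxia replicate 1 held the 1014 CPM of Cox7a2, and the fold change was 0.60 without it (adjusted p = 0.00101).

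Cox8b, the muscle form of subunit VIII, was too low to be tested, at 0.557 to 4.16 CPM in normoxia and 0 to 3.72 CPM in hyperoxia. Ndufa4, once placed in complex I and now counted with complex IV, had a log2 fold change of −0.04 (SE 0.40), and its hypoxia-inducible relative Ndufa4l2 one of −0.52 (SE 0.63). Within the libraries O to S, Ndufa4l2 was called higher, at 2.21 (adjusted p = 0.0375, edgeR), and within B to M its value was −1.23. Both rest on low counts, since the normoxic libraries of O to S held 2 and 9 counts of it and hyperoxia replicate 1 held 0. Cox7a2l, which joins complexes III and IV into supercomplexes, had a log2 fold change of −0.43 (SE 0.23, adjusted p = 0.207). Of the common subunits, Cox5a, which lies on the matrix side, had 1.61 CPM in hyperoxia replicate 1, 83.1 to 121 CPM in the other hyperoxic libraries and 50.3 to 85.2 CPM in normoxia. It was called without that library (0.61, SE 0.14, adjusted p = 0.00362), as were Cox5b (0.31, adjusted p = 0.0474) and Cox7b (0.73, adjusted p = 0.0152).

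Complex V, the ATP synthase, had 17 tested members, of which 2 were higher with all libraries, at the 11.8% of all genes, and 4 without hyperoxia replicate 1 (against 15.2%). Atp5b, the catalytic beta subunit (chr10:128083273-128090391, plus strand), ranged from 330 CPM through a median of 360 to 427 CPM in normoxia and from 593 to 789 CPM in 5 hyperoxic libraries, while hyperoxia replicate 1 had 324 CPM. The log2 fold change was 0.76 (SE 0.17, adjusted p = 0.00457), and 0.90 without that library (SE 0.11, adjusted p = 1.64e-05). Atp5b was the only one of the 15 members called higher in which hyperoxia replicate 1 did not exceed the normoxic libraries. The alpha subunit Atp5a1 followed without that library (0.51, SE 0.13, adjusted p = 0.00637), as did Atp5f1 of the peripheral stalk (0.51, SE 0.14, adjusted p = 0.0126).

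The c ring of the ATP synthase is built from 1 mature protein that 3 genes encode, of which Atp5g1 was called. Atp5g1 rose by 0.67 (SE 0.20, adjusted p = 0.0229), from 131 CPM (97.3 to 149) to 174 CPM (155 to 372), without overlap, and by 0.43 without hyperoxia replicate 1 (adjusted p = 0.0145). Atp5g2 had a log2 fold change of −0.67 (SE 0.35, adjusted p = 0.184) and Atp5g3 one of −0.08 (SE 0.51, adjusted p = 0.937), which turned to 0.20 without hyperoxia replicate 1. Within the libraries O to S the values of Atp5g1, Atp5g2 and Atp5g3 were 0.59, 0.23 and 0.46. In hyperoxia replicate 1, Atp5g1 was at 372 CPM, its highest value in any library, and Atp5g3 at 2.68 CPM, its lowest. The differences between the 3 fold changes were not tested.

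**Figure D3:**
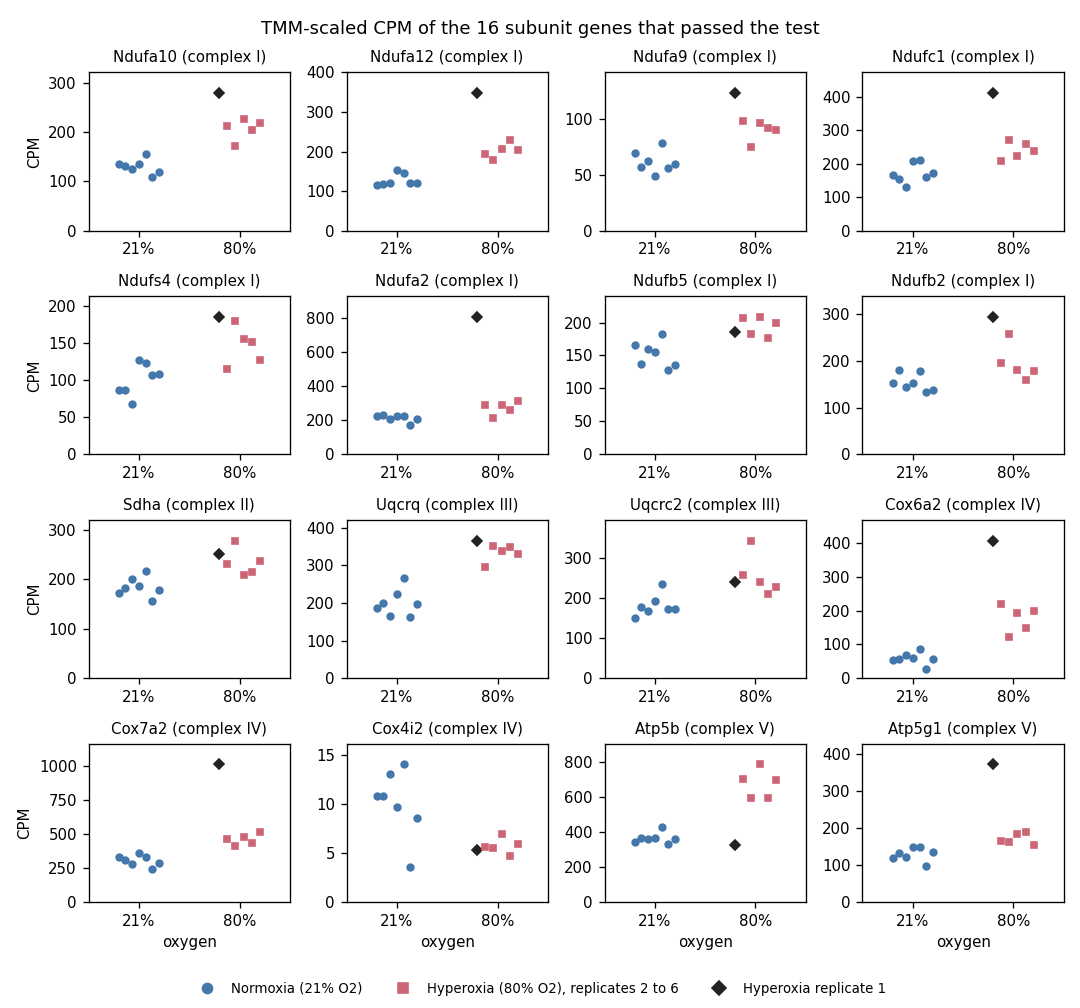
TMM-scaled CPM in each library of the 16 subunit genes with an adjusted p under 0.05, on linear axes that start at 0, at 21% and 80% oxygen. Circles are normoxic libraries, squares hyperoxic replicates 2 to 6, and diamonds hyperoxia replicate 1, which is the highest of all 13 libraries in 11 of the 15 genes called higher. Cox4i2 is the only gene with lower values in hyperoxia.

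The 13 mtDNA-encoded members gave 0 calls in either direction with all libraries, where 11.8% of all genes were higher and 10.8% lower, and 0 calls without hyperoxia replicate 1, where 15.2% and 13.3% were. Of these members 0 had an unadjusted p under 0.05 with all libraries. Their median log2 fold change was −0.32, with 11 of 13 below 0, and −0.22 without hyperoxia replicate 1, with 4 above 0. Within the libraries O to S the median was −0.02, with 1 call to lower levels (mt-Nd2), and within B to M without that library it was −0.24. With all libraries, the largest negative values among the more abundant genes were those of mt-Nd3 (−0.64, SE 0.51) and mt-Atp6 (−0.61, SE 0.47), both read at low levels in hyperoxia replicate 1. Without that library they were −0.37 and −0.34, about level with mt-Nd2 (−0.37).

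The mitochondrial genes of complex I form its proton-pumping membrane core. The level of mt-Nd4 was 2792 to 3739 CPM in normoxia and 2005 to 3110 CPM in 5 hyperoxic libraries, with 500 CPM in hyperoxia replicate 1 (log2 fold change −0.54, SE 0.29, adjusted p = 0.211, and −0.31 without that library, adjusted p = 0.100). For mt-Nd1 the ranges were 1819 to 2986 and 2059 to 2686 CPM, for mt-Nd2 2638 to 6467 and 2240 to 4534 CPM, and for mt-Nd5 934 to 1507 and 814 to 1386 CPM, each without hyperoxia replicate 1. All these groups overlapped. On the opposite strand of mtDNA, mt-Nd6 had 1342 to 2042 CPM in normoxia and 1120 to 2720 CPM in hyperoxia. The values of mt-Nd4l, which overlaps mt-Nd4, were at 0 in several libraries of both groups and at most 60.0 CPM.

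Of the mitochondrial genes of the other complexes, mt-Cytb of complex III had a log2 fold change of −0.46 (SE 0.30), and of −0.23 without hyperoxia replicate 1. The catalytic subunit of complex IV, mt-Co1, had 1054 to 1335 CPM in normoxia and 1056 to 1391 CPM in hyperoxia, hyperoxia replicate 1 included (log2 fold change 0.09, SE 0.12). For mt-Co2, which receives electrons from cytochrome c, hyperoxia replicate 1 had 183 CPM and the other hyperoxic libraries 2849 to 4445 CPM, against 2691 to 5073 CPM in normoxia. The log2 fold change of mt-Co3 was −0.44 (SE 0.28), and −0.22 without hyperoxia replicate 1. Of the ATP synthase genes, mt-Atp8 had a log2 fold change of 0.16 (SE 0.21) and mt-Atp6 had 2046 to 3390 CPM in 5 hyperoxic libraries and 87.9 CPM in hyperoxia replicate 1, against 2644 to 4366 CPM. The genes mt-Atp8 and mt-Atp6 overlap, and counting may divide their reads.

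Summed over all members, the nuclear rows took 0.791% to 1.12% of the counts of a normoxic library (0.963% ± 0.12, SD, n = 7) and 0.906% to 1.32% of a hyperoxic one (1.12% ± 0.17, SD, n = 6). The mtDNA rows took 2.19% to 3.24% in normoxia (2.83% ± 0.36, SD, n = 7) and 0.944% to 2.74% in hyperoxia (2.13% ± 0.66, SD, n = 6). Without hyperoxia replicate 1 the hyperoxic means were 1.16% ± 0.15 and 2.37% ± 0.34 (SD, n = 5). The groups overlapped on both measures. Quant-seq selects polyadenylated RNA, so the mtDNA share also depends on the tails of these transcripts.

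**Figure D4:**
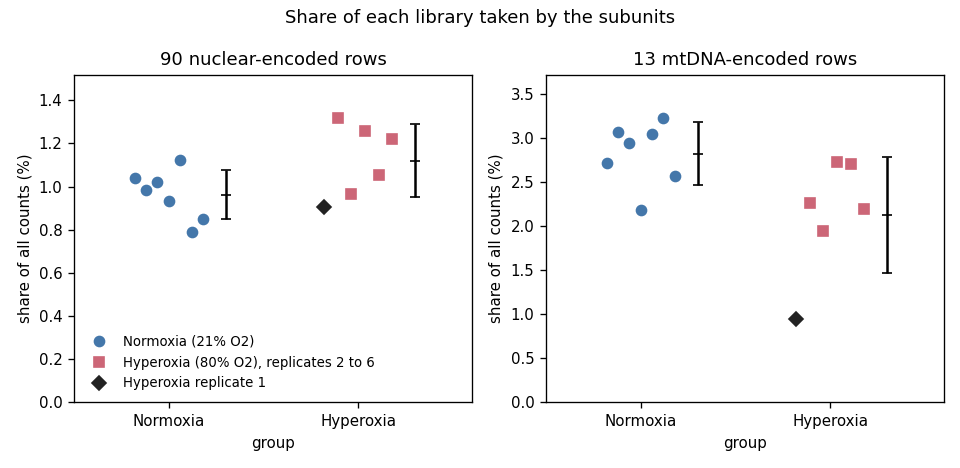
Share of all counts of each library, in percent, taken by the 90 nuclear-encoded rows (left) and the 13 mtDNA-encoded rows (right), with the mean and SD of each group as bars. Hyperoxia replicate 1 (diamond) is the lowest of all libraries for the mtDNA rows, at 0.944%.

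Hyperoxia replicate 1 was the lowest of all 13 libraries in 54 of the 94 members (57.4%, against 31.8% of all genes tested) and the highest in 13 (13.8%, against 21.1%). In 31 members it lay under 20% of the median of the hyperoxic libraries, and in 9 it lay over 150% of it. It had 0 counts of Ndufa1, Ndufa8, Ndufb6 and Sdhd, 2.14 CPM of Ndufs5, 3.75 CPM of Atp5j and 5.36 CPM of Cox7c. On the other side stood Cox6c at 1307 CPM, where the next library had 839 CPM, and Ndufa11 at 376 CPM, where the next had 176 CPM. The low and high values thus fell on different subunits of the same complex. The median standard error of a member's log2 fold change was 0.28 with this library and 0.19 without it. The mean log2 CPM of the nuclear members relative to the normoxic mean was −1.43 in this library and −0.22 to 0.46 in the other hyperoxic libraries. That of the mtDNA members was −2.22, against −0.47 to 0.15 in the others. The normoxic libraries themselves ran from −0.49 to 0.29 for the nuclear members.

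**Figure D5:**
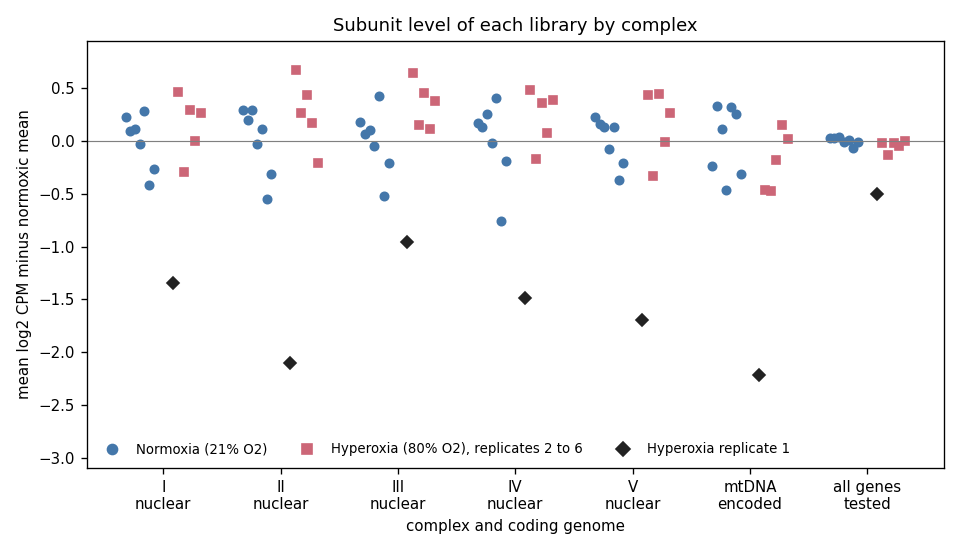
Mean log2 CPM of the tested members of each complex in each library, minus the mean of the 7 normoxic libraries, with mtDNA-encoded members together and all genes tested at the right. Diamonds mark hyperoxia replicate 1, which lies between −2.22 and −0.96 for the subunits and at −0.50 for all genes. Squares (hyperoxic replicates 2 to 6) and circles (normoxia) overlap in each column.

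Other genes of the pathway were taken from lists by function. Cytochrome c (Cycs), the carrier between complexes III and IV, rose by 1.01 on the log2 scale (SE 0.22, adjusted p = 0.00322), from a normoxic median of 83.5 CPM (59.4 to 129) to 168 CPM (115 to 257). Cyc1 and Ndufab1, which are subunits outside the symbol families, were not called with all libraries but were without hyperoxia replicate 1, at 0.94 (adjusted p = 0.0164) and 0.49 (adjusted p = 0.00236). Of 14 tested assembly factors of complex I, 2 were higher, near the 11.8% of all genes, and 0 lower, and without hyperoxia replicate 1 Ndufaf3 was lower as well (−0.46, adjusted p = 0.0372). Ndufaf4 had 36.0 to 49.1 CPM in normoxia and 77.5 to 109 CPM in hyperoxia and rose by 1.24 (SE 0.13, adjusted p = 7.52e-06), and Ndufaf6 rose by 1.03 (SE 0.29, adjusted p = 0.0173).

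Of 18 tested assembly factors of complex IV, 2 were higher and 0 lower with all libraries (against 11.8% of all genes higher), and 4 were higher without hyperoxia replicate 1 (against 15.2%), with Cox18 and Cox15 added. Cox10, which makes heme O for the complex, rose by 1.23 (SE 0.21), with 27.6 to 37.0 CPM in normoxia and 47.8 to 133 CPM in hyperoxia, and Higd1a by 0.74 (SE 0.23). Hyperoxia replicate 1 had 522 CPM of Higd1a and the other hyperoxic libraries 176 to 217 CPM, and without it the fold change was 0.40. The 4, 6 and 3 tested assembly factors of complexes II, III and V gave 0 calls with all libraries (without hyperoxia replicate 1, Tmem70 of complex V was higher), and their median log2 fold changes were 0.22, 0.22 and 0.35. Among 10 genes of ubiquinone synthesis, Coq7 (0.70, SE 0.21) and Coq10b (0.97, SE 0.31) were higher and 0 were lower with all libraries (against 11.8% of all genes higher). Without hyperoxia replicate 1, 4 were higher (against 15.2%), with Pdss1 (adjusted p = 0.0278) and Coq3 (adjusted p = 0.0324) added.

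Among 8 transcriptional regulators of the chain, 2 were higher with all libraries (against 11.8% of all genes) and 3 without hyperoxia replicate 1 (against 15.2%). Ppargc1a, the coactivator PGC-1 alpha, ranged from 12.3 through 18.2 to 24.5 CPM in normoxia and from 29.3 through 40.4 to 46.6 CPM in hyperoxia, without overlap, and rose by 1.08 (SE 0.18). Its relative Pprc1 rose by 0.83 (SE 0.28, adjusted p = 0.0439). The factors whose letters were searched in the promoters did not pass with all libraries, with log2 fold changes of 0.14 for Nrf1 (SE 0.14), −0.07 for Gabpa (SE 0.20), 0.52 for its partner Gabpb1 (SE 0.19), 0.30 for Yy1 (SE 0.16) and −0.48 for Esrra (SE 0.34). Gabpb1 was the regulator added without hyperoxia replicate 1 (0.65, adjusted p = 0.00753). Of 14 genes of mtDNA maintenance and expression, Polg, the mtDNA polymerase, was lower by call, at −0.45 (SE 0.12, adjusted p = 0.0130), with 51.7 to 68.0 CPM in normoxia and 40.7 to 49.8 CPM in hyperoxia. Without hyperoxia replicate 1, Supv3l1 of this list was higher (adjusted p = 0.0231). Tfam, which packs and transcribes mtDNA, had 0.05 (SE 0.19).

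Markers of lung cell types moved in the same comparison. Of 7 alveolar type 2 markers 6 were lower, with sums of 15006 to 26064 CPM in normoxia and 4501 to 8288 CPM in hyperoxia. With all libraries, club cell markers were lower in 2 of 3 cases, B cell markers in 4 of 4 and ciliated cell markers in 2 of 6. Endothelial markers were lower in 2 of 7 cases and alveolar type 1 markers in 1 of 6, with 0 higher in any of these lists. Of 7 macrophage markers 1 was higher and 2 were lower. Of all genes, 10.8% were lower and 11.8% higher. Without hyperoxia replicate 1, 3 club, 3 ciliated and 3 endothelial markers were lower. In that fit the endothelial marker Cldn5 was higher (0.71, adjusted p = 0.0408, edgeR), as were 2 macrophage markers. Of all genes, 13.3% were lower and 15.2% higher there. The sums of the endothelial markers were 2827 to 5000 CPM in normoxia and 1253 to 4858 CPM in hyperoxia, with the lowest in hyperoxia replicate 1. The 2 tested brown fat markers gave 0 calls, with sums of 16.4 to 74.7 and 20.2 to 51.2 CPM over all 6 listed. The part of cell composition in the subunit values was not tested.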

How the data were processed

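Lung RNA of 13 mouse libraries was read by Quant-seq. The authors pseudoaligned the reads with kallisto and deposited whole-number counts per gene symbol, and the submitters' processing notes name the build mm10. A second table deposited by the authors holds log10 of CPM plus 1, with the library total as divisor. The transcript annotation and the strand setting are not given in the sources used here. All columns belonged to the 13 samples (0 unmapped). Members and gene lists were chosen with earlier results of these data known.

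Counts were tested with edgeR 4.0.16 in R 4.3.3 (TMM, filterByExpr, glmQLFit and glmQLFTest, 12496 genes, Benjamini-Hochberg), and CPM values are TMM-scaled. Standard errors come from the fold change and the F statistic, and log2 CPM means use a prior count of 2. Named genes were the 3 nuclear members of each complex with the smallest p (5 for complex I), every called member, the tissue isoforms with their partners, 7 subunits that carry the flavin or iron-sulfur clusters, all complex II and mtDNA members, Ndufab1, Cyc1 and Cycs, the inhibitor Atp5if1 (not matched in the table by that symbol), and of each pathway list up to 4 called genes. Other genes that are named, such as Ndufb6, Cox5a, Atp5f1, Atp5g2, Atp5g3, the members extreme in hyperoxia replicate 1, pathway genes called only without that library, and the regulators not called, were chosen after their values were seen. Genes were located in GENCODE M21 (GRCm38). Alternatives were DESeq2 1.42.0, limma 3.58.1 (voom, or the deposited values as log2), other scalings and filters, the replicate block, the letter sets and each library left out. All 36 pairs of replicates differed beyond sampling noise (chi-square per gene at least 3.95). Intervals and floors cover counting error only, since the counts carry no molecular identifiers.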

Additional observations from a re-analysis of the deposited data

Results flagged for a closer look

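Within each oxygen group, 114 sets of values were screened for a library standing far from the rest of its group (Dixon's 95% critical value), and 27 were found, 19 of them on hyperoxia replicate 1, where chance gives about 1 in 20. The screen covered the subunit means, the library totals and the named genes, and no explanation was weighed.

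Hyperoxia replicate 1 lay far below the other hyperoxic libraries in its mean correlation with other libraries (0.779) and in the mean log2 CPM of the subunits relative to the normoxic mean. This mean was −1.43 for the nuclear members, −2.22 for the mtDNA members, and −1.46, −2.10, −1.14, −1.60 and −1.81 for complexes I to V. Among single genes it was far above its group for Cox7a2 (1014 CPM), Ndufa2 (805 CPM), Ndufc1 (411 CPM), Cox6a2 (407 CPM), Atp5g1 (372 CPM) and Ndufa12 (348 CPM). It was far below its group for mt-Nd1 (608 CPM), mt-Co2 (183 CPM), Sdhc (38.1 CPM), mt-Nd3 (17.7 CPM) and Ndufa4 (6.97 CPM).

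Of the other libraries, normoxia replicate 5 had the smallest total (1607111 counts) and stood high for mt-Nd3 (1980 CPM), Atp5b (427 CPM) and mt-Nd4l (60.0 CPM). Normoxia replicate 6 stood high for mt-Co1 (1335 CPM) and low for Ndufa2 (172 CPM). Hyperoxia replicate 3 stood high for Uqcrc2 (343 CPM), and hyperoxia replicate 6 for mt-Nd4l (35.6 CPM).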

How the results depend on the processing

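The 15 members called higher kept a fold change above 0 under every alternative run, but they were picked by a fit of these same libraries. Of them, 15 were called by DESeq2, 13 by limma-voom, 11 by limma on the deposited log values, 11 with library size alone, 12 without a filter and 12 with at least 10 counts in every library. Of all genes, these fits called 14.1%, 11%, 8.78%, 9.44%, 7.34% and 14.1% higher, in that order. Limma on the deposited values moved the median of all genes to −0.16, and library size alone moved it to −0.10. Leaving out 1 library at a time gave 11 to 23 members higher, where 10.1% to 15.2% of all genes were. It gave 0 to 1 lower, where 8.45% to 13.3% of all genes were. The 23 were reached without hyperoxia replicate 1. By complex, these fits gave 5 to 8 members higher in complex I, 0 to 2 in II, 2 to 3 in III, 2 to 6 in IV and 2 to 4 in V. The 5 in complex I came without normoxia replicate 2, 3, 4, 6 or 7, and the 6 in complex IV and 4 in complex V without hyperoxia replicate 1. Ndufa2 lost its call without any 1 of the normoxic libraries, and Sdha without normoxia replicate 1, 2, 4, 6 or 7 or hyperoxia replicate 3 or 6. Causes were not tested.

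The replicate numbers did not pair the samples, since the deviations of same-numbered libraries correlated at −0.325 to 0.272 and 1 of 6 pairs matched best with its own number. With the replicate block 6 members were higher, 3 in complex I, 0 in II, 1 in III and 0 in V, and 0 were lower, where 5.75% and 5.01% of all genes were called, and the median of complex V was −0.11.

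Within the libraries lettered B to M, 2 members were higher, 1 each in complexes I and IV and 0 in II, III and V. Their medians were −0.69 for mtDNA, −0.12 for complex III, −0.38 for IV and −0.33 for V. Within O to S, 36 members were higher, of which 15 were in complex I, 2 in II, 4 in III, 8 in IV and 7 in V, and 1 mtDNA member of complex I was lower. The medians were 0.46 for all members, 0.52 for the nuclear ones, 0.46 for I, 0.64 for III, 0.53 for IV and 0.46 for V. In 2 settings chosen after seeing the data, B to M without hyperoxia replicate 1 gave 5 higher (1 each in I, IV and V, 0 in II), and the letter set as a term without that library gave 29 higher (3 in II, 5 in III, 6 in IV and 4 in V, against 16% of all genes) and 1 mtDNA member of complex I lower (against 13.6%). The medians of the latter were 0.31 for all members, 0.37 for the nuclear ones, 0.23 for I, 0.53 for III and 0.31 for V.

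The lower call of Cox4i2 stood alone. DESeq2 gave 2 members lower in complex IV, and limma-voom, no filter, the letter set as a term and both fits within B to M gave 0. A fold change over 1.5 on the log2 scale was met by 1 called member, in complex IV, and by 0 in I, II, III and V, and leaving out copies, tissue isoforms and factors left 1 higher and 0 lower in complex IV. Complex I had 5 higher by limma on the deposited values and with library size alone, and complex II had 0 by these, without a filter and with the stricter filter. Limma on the deposited values gave medians of −0.67 for mtDNA and −0.19 for complex V. The difference of the Cox6a2 to Cox6a1 ratio was 0.91 without hyperoxia replicate 1.

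Members that changed direction were not called with all 13 libraries. Within O to S the log2 fold change was 0.44 for Sdhd, 0.53 for Cox4i1, 0.047 for Cox7a2l, 1.38 for Cox8a, 0.18 for Ndufa4, 2.21 for Ndufa4l2, 1.25 for Ndufs7, 0.83 for Ndufs8, 0.20 for mt-Co2, 0.13 for mt-Nd1, 1.75 for mt-Nd4l and 0.056 for mt-Nd6. Within B to M it was −0.034 for Cox6a1, −0.14 for Ndufv1, 0.019 for Ndufs1 and 0.057 for mt-Nd5, and without hyperoxia replicate 1 there, 0.25 for Ndufa4, −0.10 for Ndufv1, 0.14 for Ndufs1 and 0.014 for mt-Nd1. With the letter set as a term Cox8a was at 0.10, and with that term and without hyperoxia replicate 1 the values were 0.13 for Sdhd, 0.091 for Cox4i1, 0.56 for Cox8a, 0.23 for Ndufa4, 0.43 for Ndufa4l2, 0.14 for Ndufs7, 0.023 for mt-Co2 and 0.078 for mt-Nd1. No filter gave 0.021 for Cox8a, 0.020 for mt-Nd5 and 0.015 for mt-Nd6, DESeq2 gave 0.0070 for mt-Nd5, and limma on the deposited values gave −0.024 for Sdhc. With 1 library left out, values ran from −0.17 to 0.24 for Cox8a, −0.16 to 0.22 for Ndufa4, −0.12 to 0.0084 for Ndufs1, −0.25 to 0.028 for mt-Nd1, −0.069 to 0.088 for mt-Nd5 and −0.20 to 0.088 for mt-Nd6. Among members named for other reasons, limma on the deposited values turned Ndufb6 to −0.39, Cox5a to −0.37, Cox7c to −0.71 and Ndufs6 to −0.040, and library size alone turned Cox7c to −0.019. Within B to M, Cox5a was at −0.020, Cox7c at −0.43 and Ndufs6 at −0.29. Within O to S, the turned values were 0.23 for Atp5g2, 0.46 for Atp5g3, 0.039 for Atp5j, 0.27 for Atp5k, 0.24 for Ndufa1, 0.039 for Ndufa3, 0.76 for Ndufa8, 0.79 for Ndufb8, 0.73 for Ndufs3 and 0.24 for Ndufs5. Without hyperoxia replicate 1 they were 0.20 for Atp5g3, 0.011 for Atp5k, 0.23 for Ndufa8, 0.21 for Ndufb8 and 0.15 for Ndufs3.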
